A study of Homo sapiens with 22 samples.

Results

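RNA sites bound by QKI5 were compared with the positions of RNA polymerase II (Pol II) on DNA in control THP-1 cells, a human monocytic leukaemia line. Per the sample labels, which were followed here, the control cells carried a lentivirus with the hairpin named sh-control, whereas the series' design text calls them untreated. Cells with the sh-QKI5 hairpin and H3K4me3, a histone mark of active promoters, serve as further readouts. Control cells gave 2 samples of QKI5 crosslinking immunoprecipitation (CLIP), which maps the RNA a protein touches, and 2 samples of Pol II chromatin immunoprecipitation (ChIP), which maps DNA. Both samples of an assay were pooled into 1 deposited peak list, so no value has a replicate check and no p-value is given. The comparison takes all 7300 control CLIP peaks and all 33370 control Pol II peaks of chromosomes 1 to 22, X and Y, out of 119823 peaks in the 6 lists of the series. A CLIP peak was on a Pol II peak when they shared at least 1 bp on either strand, or else within 5 kb of one, or farther. The 20033 protein-coding genes of a RefSeq table were sorted by CLIP and by a Pol II gene-end peak, meaning a peak within 1 kb of either outer end of the gene.

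QKI is an RNA-binding protein of the STAR family, and QKI5 is its nuclear isoform. It recognises a short element with the core ACUAAY, mostly in introns and at the ends of messages, and is best known for steering splicing and circular RNA formation in muscle, glia and blood vessels. Pol II gathers just downstream of active starts before it is released into the gene, and gathers again where transcription ends. An RNA still attached to the polymerase is close to the DNA it came from, so RNA-protein contacts and polymerase can be compared on 1 map, although CLIP also reads finished RNA that has left its gene. Exons and introns were not analysed here.

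Of 8 monocytic marker genes, 7 had a control H3K4me3 or Pol II gene-end peak, among them SPI1, CEBPA, CD33, LYZ, ITGB2, CD14 and TYROBP. MPO, the peroxidase of myeloid granules, had neither. Of 26 markers of other cell types, 9 had one, including CD79A of B cells, NKG7 of natural killer cells and PECAM1, listed here under endothelium. The Pol II peak of CD79A was near its 3′ end and outside the gene. The part of other cells in the results was not tested. QKI itself had a Pol II gene-end peak on chromosome 6, from 163411618 to 163418259. Peak coordinates here are those of the deposited lists and were taken as GRCh38.p5, which the submitters' notes name without a role. The single CLIP peak of QKI had 9 reads and lay 21.3 kb from Pol II. The depth of the libraries is unknown from the lists.

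CLIP peaks at the very start of a gene show the closest meeting of the assays, and 4 such starts are shown from RefSeq (GRCh38.p14), in the direction of the gene. They come from the 40 genes with the most CLIP peaks on a Pol II peak at their 5′ end and other named genes, and were chosen after their values were seen because CLIP peaks fall inside the stretch shown. Each run has 300 bases that end 50 bases into the gene, and capitals mark the bases under a control CLIP peak.
BOD1L1: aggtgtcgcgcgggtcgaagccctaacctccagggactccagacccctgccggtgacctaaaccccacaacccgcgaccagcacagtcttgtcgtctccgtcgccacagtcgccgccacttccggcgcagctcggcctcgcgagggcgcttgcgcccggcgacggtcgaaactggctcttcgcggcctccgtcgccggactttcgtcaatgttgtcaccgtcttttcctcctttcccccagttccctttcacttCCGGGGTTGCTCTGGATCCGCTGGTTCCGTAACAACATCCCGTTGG
DNAJB6: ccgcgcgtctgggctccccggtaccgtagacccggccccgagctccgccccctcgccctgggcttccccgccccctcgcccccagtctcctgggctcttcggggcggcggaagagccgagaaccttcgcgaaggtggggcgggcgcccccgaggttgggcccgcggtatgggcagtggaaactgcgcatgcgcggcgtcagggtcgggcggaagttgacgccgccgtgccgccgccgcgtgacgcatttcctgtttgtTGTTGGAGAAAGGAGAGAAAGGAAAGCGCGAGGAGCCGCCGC
JUN: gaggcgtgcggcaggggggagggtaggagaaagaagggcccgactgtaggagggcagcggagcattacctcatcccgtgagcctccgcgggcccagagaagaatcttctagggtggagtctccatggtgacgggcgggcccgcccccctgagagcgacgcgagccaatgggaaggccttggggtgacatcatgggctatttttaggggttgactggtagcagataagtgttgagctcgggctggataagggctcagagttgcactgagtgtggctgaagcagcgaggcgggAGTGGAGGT
FAU: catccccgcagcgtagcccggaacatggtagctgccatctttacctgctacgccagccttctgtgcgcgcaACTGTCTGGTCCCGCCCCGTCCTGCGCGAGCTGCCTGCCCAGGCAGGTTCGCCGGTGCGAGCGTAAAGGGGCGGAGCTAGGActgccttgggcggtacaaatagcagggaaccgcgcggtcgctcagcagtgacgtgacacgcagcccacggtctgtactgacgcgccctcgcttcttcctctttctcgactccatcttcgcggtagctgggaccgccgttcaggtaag
BOD1L1, needed to protect damaged replication forks, had 46 bases of this stretch under 5 CLIP peaks with at most 6 reads each. At DNAJB6, a heat-shock co-chaperone, 42 bases lay under 2 peaks with up to 11 reads. JUN, a subunit of the AP-1 transcription factor, had 9 bases under 1 peak of 37 reads that ran on downstream. FAU, which encodes a ubiquitin-like protein fused to a ribosomal protein, was the exception in position, since its 82 marked bases lay upstream of the start, under 1 peak of 8 reads. The start of each of these 4 genes lay inside a Pol II peak. Such cases were rare among all peaks: 36 of 695 CLIP peaks on Pol II had their centre in the corresponding stretch of their own gene, 2 of 1178 within 5 kb and 3 of 3294 farther away.

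Most QKI5 sites lay away from Pol II peaks. Of the 7300 CLIP peaks, 966 (13.2%, exact 95% interval 12.5 to 14.0) were on a Pol II peak, 1571 (21.5%, 20.6 to 22.5) were within 5 kb, and 4763 (65.2%, 64.1 to 66.3) were farther. Intervals are Clopper-Pearson for shares and Newcombe for differences, and cover counting error only. They treat peaks as independent, although the 7300 peaks form 4925 sites when those within 50 bp are merged. Intervals of peak shares can therefore be too narrow. Among peaks with at least 10 reads the share on Pol II was 20.8%. The median distance was 1.67 kb within the 5 kb limit and 34.0 kb beyond it, with a maximum of 4215 kb. The nearest Pol II peak was on the 5′ side of the CLIP peak for 62.8% of the peaks within 5 kb and for 62.1% of those farther away.

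The share on Pol II fell steeply with gene length. Genes were put into 5 length classes of equal size, with median lengths of 3.07, 10.8, 24.1, 52.3 and 152 kb. Among CLIP peaks inside their own protein-coding gene, 61.8% were on Pol II in the shortest class, then 32.9%, 20.6%, 12.6% and 4.88% in the longest. For comparison, the share of all positions in the same genes at which a window as wide as the CLIP peak would touch a Pol II peak was 57.5%, 30.0%, 16.0%, 6.76% and 2.74%. The observed share was 1.07 and 1.10 times the share of positions in the 2 shortest classes, with the latter inside the interval of the former. It was 1.29 times in the middle class and 1.86 and 1.78 times in the 2 longest, and in these 3 classes the interval lay above the share of positions. Over all 6474 CLIP peaks inside their matched gene, 13.0% were on Pol II against 9.49% of positions.

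Position along the gene went with this excess. Of 5843 peaks in protein-coding genes whose strand the peak gave, 5.48% had their centre in the first 1 kb and 10.4% between 1 and 5 kb from the 5′ end. Another 73.3% lay over 5 kb from both ends. In the first 1 kb, 83.4% (78.9 to 87.3) of CLIP peaks were on Pol II, against 80.8% of the positions of the same stretch of the same genes. Between 1 and 5 kb the values were 31.2% (27.5 to 35.0) and 29.7%. Over 5 kb from both ends they were 4.09% (3.51 to 4.72) and 3.56%, and in the last 5 kb of genes, over 5 kb from the start, 17.7% (14.8 to 20.9) and 16.5%. In all 4 stretches the share of positions was inside the interval of the CLIP share. Over the stretches together, 12.7% (11.9 to 13.6) of CLIP peaks were on Pol II against 11.9% of positions, a ratio of 1.07. As rounded, the share of positions was at the lower limit of that interval. Without that matching the same 5843 peaks gave 12.7% against 9.22% of positions in the whole gene, a ratio of 1.38. In genes of the 2 longest classes the matched ratio was 1.02 in the first 1 kb, 1.11 from 1 to 5 kb, 1.20 over 5 kb from both ends and 1.31 in the last 5 kb, and the share of positions was inside the interval each time. The CLIP share within 5 kb of Pol II, 22.6%, stood beside 22.7% of positions matched by stretch.

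**Figure D1:**
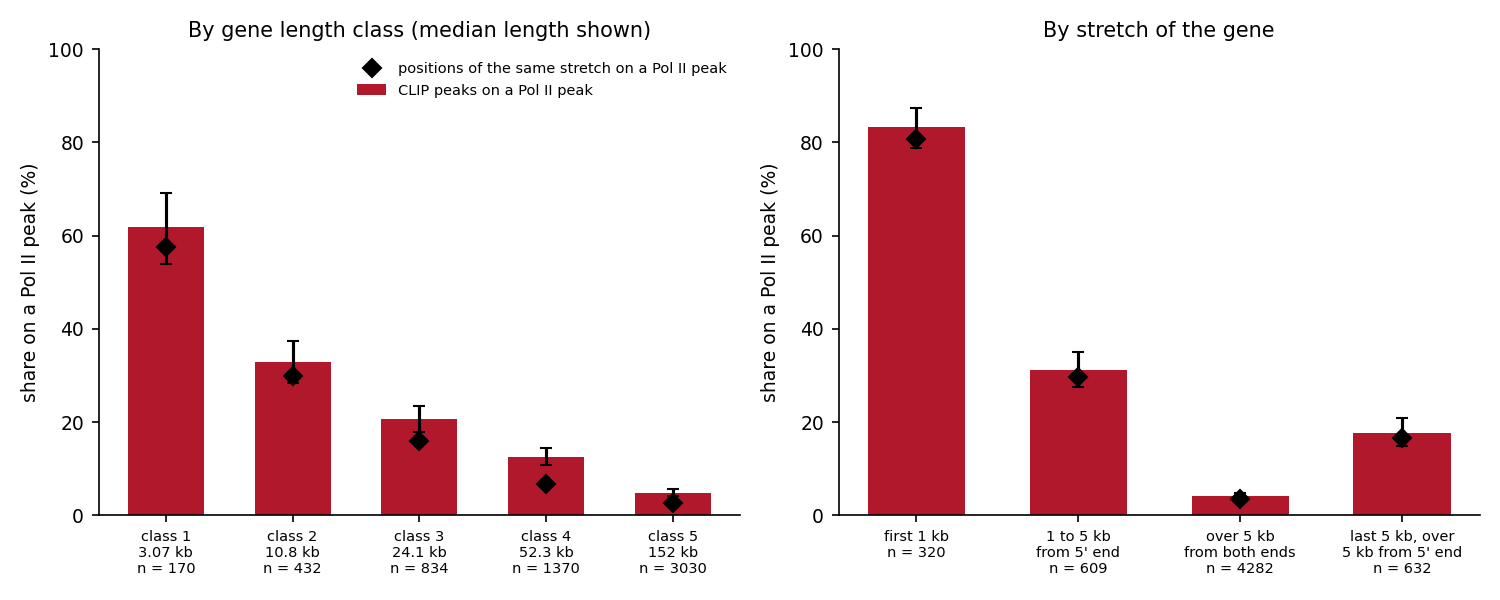
Share of control CLIP peaks on a Pol II peak (bars, with exact 95% binomial intervals) and of positions on a Pol II peak (diamonds), in percent, by gene length class with its median length (left) and by stretch of the gene (right), with the number of CLIP peaks under each bar. The diamonds lie below the intervals in the 3 longest classes, most in the last 2 (6.76% against 12.6% and 2.74% against 4.88%). Once the stretch of the gene is matched, they lie inside every interval, below the CLIP share each time.

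CLIP peaks on Pol II held more reads and lower enrichment than those far away. The CLIP list has no header, so the read number, here and wherever reads are given, is the last number of the peak's name and the log2 enrichment is column 5, both identified from their values alone. The median read number was 10 on Pol II, 9 within 5 kb and 8 farther, and 7.97%, 4.58% and 2.46% of peaks reached 20 reads. The median log2 enrichment ran the other way, 4.92 on Pol II, 5.34 within 5 kb and 6.09 farther. Background reads could be inferred for 99.2% of peaks, and their median was 5, 3 and 2 in the same order. A background of 1 read stood behind 20.2% of peaks on Pol II, 28.4% within 5 kb and 44.5% farther. The share on Pol II rose from 8.02% among peaks of 3 to 7 reads to 18.3% at 10 to 14, 31.1% at 15 to 29, and 27.9% (20.6 to 36.1) at 30 or more. It also rose with the background, from 6.85% at 1 background read to 31.4% at 10 or more. RNA abundance and QKI5 binding both set the read number of a peak and cannot be told apart in these lists.

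**Figure D2:**
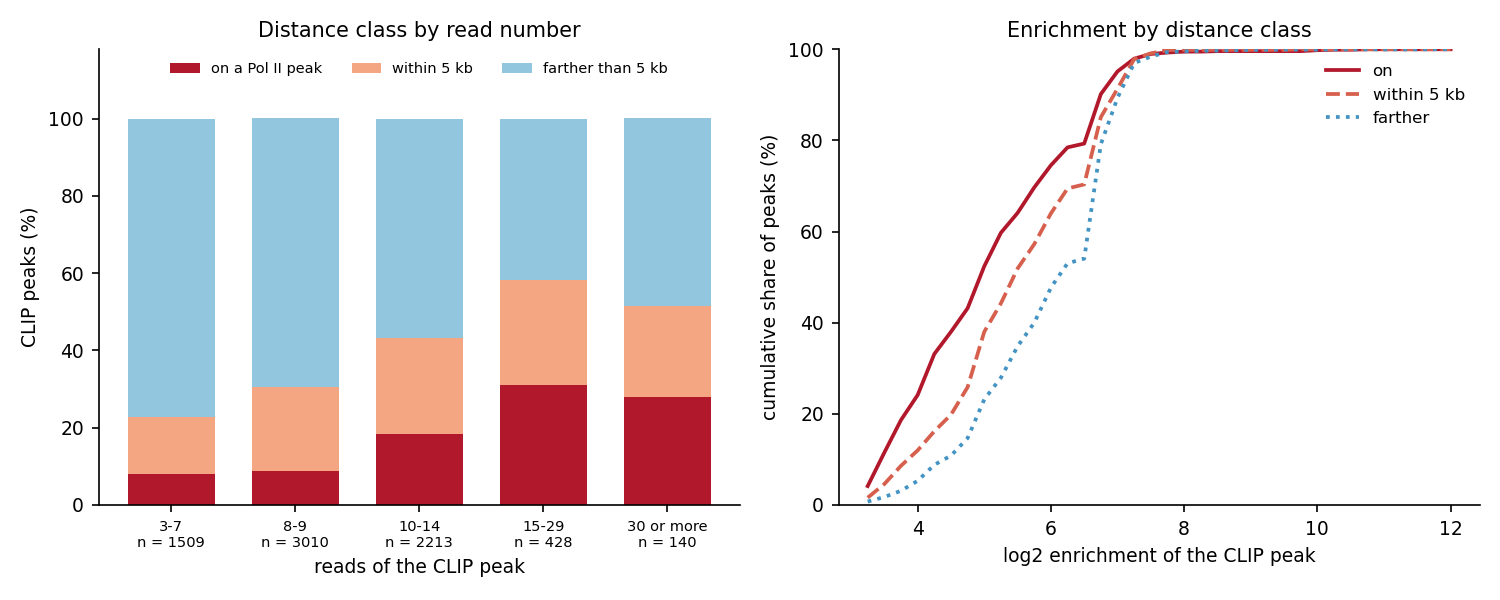
Left, percent of control CLIP peaks on a Pol II peak, within 5 kb of one or farther, by the read number of the peak, with the number of peaks under each bar. Right, cumulative percent of CLIP peaks against their log2 enrichment, in bins, for the 3 distance classes; peaks on Pol II had a median of 4.92 and the farther ones of 6.09.

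Sites on Pol II carried the promoter mark far more often. An H3K4me3 peak overlapped 66.7% of CLIP peaks on Pol II, 16.2% of those within 5 kb and 1.24% of the farther ones. The Pol II list of sh-QKI5 cells overlapped 79.6%, 11.8% and 0.861% of the same peaks. The classes were sorted by control Pol II, and Pol II peaks often carry both readouts without CLIP. Of Pol II peaks with no CLIP peak, 46.9% overlapped H3K4me3 and 62.8% a Pol II peak of sh-QKI5 cells. Both gradients thus follow in large part from the sorting. CLIP peaks of sh-QKI5 cells, 649 in all, overlapped 3.21% (2.19 to 4.52) of the control peaks on Pol II, 1.53% (0.981 to 2.26) within 5 kb and 1.62% (1.28 to 2.02) farther. That overlap ranged more widely with the read number of the control peak. It was 0.133% at 3 to 7 reads and again at 8 or 9, 0.768% at 10 to 14, 7.48% at 15 to 29, and 55.0% (46.4 to 63.4) at 30 or more, where 77 of 140 control peaks had a peak in sh-QKI5 cells on the same strand.

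The CLIP peaks on Pol II with the most reads were at POLG-DT, the neighbours FMC1 and LUC7L2, and RPSA. For each distance class the 8 peaks with the most reads, 1 per gene, are described. On Pol II, the lncRNA POLG-DT led with 341 reads over 36 bp at a log2 enrichment of 4.47. FMC1, an assembly factor of the mitochondrial ATP synthase, and LUC7L2, a splicing factor of the U1 snRNP, followed with 279 and 269 reads. Their peaks adjoin on chromosome 7, from 139340729 to 139340776 on the plus strand, under 1 Pol II peak of 3231 bp, so 2 gene names share 1 adjoining site. RPSA, a ribosomal protein, had 249 reads at a log2 enrichment of 3.09, and DANCR, a lncRNA, had 142. KCTD2 had 132 reads on a Pol II peak inside the gene. RNU6-9, a gene for the U6 spliceosomal RNA that has many near-identical copies, had 105 reads at a log2 enrichment of 10.06, and HSPA1B, an inducible HSP70, had 104. HSPA1B has a near-identical neighbour, HSPA1A, and how reads were divided between copies is not given in the sources used here.

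Within 5 kb of Pol II, the lncRNA B4GAT1-DT led with 209 reads 0.106 kb from the peak, and CARS2, the mitochondrial cysteinyl-tRNA synthetase, had 153 reads at 2.05 kb. LINC01623, INSIG2, which holds back cholesterol synthesis, and the gene listed as CTD-2525I3.6 had 61, 56 and 54 reads. STAT5B, a cytokine-activated transcription factor, had 48 reads 4.60 kb away. SCARNA9, a guide RNA of Cajal bodies, had 47, and AHNAK, a very large scaffold protein, had 41 at 1.87 kb.

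Farther than 5 kb, the most reads were at SOX2-OT. This lncRNA, which overlaps the pluripotency gene SOX2, had a peak 7 bp wide with 4057 reads at chromosome 3, 181231738 to 181231744 on the plus strand, 241 kb from the nearest Pol II peak. PRMT8, an arginine methyltransferase of the brain, had 226 reads in 16 bp with 1 background read, a log2 enrichment of 11.74, 247 kb from Pol II. Genes listed as AC037445.1, RP11-61O11.1, CH507-513H4.1 and AL021918.1 had 179, 124, 114 and 103 reads, CCDC200 had 99, and CDK6, a G1 cyclin-dependent kinase, had 77 reads 6.36 kb away. Of these 24 named peaks, 16 overlapped a CLIP peak in sh-QKI5 cells: 4 of 8 on Pol II, 6 of 8 within 5 kb and 6 of 8 farther. Of the same 24, 10 were at most 20 bp wide, of which 1 was on Pol II.

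A Pol II peak at the start of the same gene was the commonest kind under CLIP. Of the 966 CLIP peaks on Pol II, 471 (48.8%, 45.6 to 52.0) were on a peak within 1 kb of the 5′ end of their own protein-coding gene, and 433 of these (91.9%) also had H3K4me3. Another 92 (9.52%) were on a peak at the 3′ end only, of which 19.6% had H3K4me3. A Pol II peak inside the gene and at neither end carried 187 (19.4%), with H3K4me3 at 27.8%, and a peak at the end of another protein-coding gene carried 35 (3.62%). The remaining protein-coding peaks, 13 in number, lay elsewhere. Of the CLIP peaks matched to no protein-coding gene, 122 were on a Pol II peak at the end of a protein-coding gene, 12 on one inside such a gene and 34 on one outside. The median Pol II width was 3600 bp under 5′ end sites, 5971 bp under 3′ end sites and 1202 bp inside genes. The shares of these kinds were not set against those of Pol II peaks in general. In the first 1 kb of genes, 83.4% of CLIP peaks and 80.8% of positions were on Pol II, so no preference for starts can be read from the ranking. A 5′ end site is named by where the Pol II peak reaches. The CLIP peak on it can lie far from the start, 21.2 kb at TRA2B.

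Seen from Pol II, few peaks had QKI5 RNA on them, and width went with that share. Of 33370 Pol II peaks, 591 (1.77%) carried a CLIP peak. The share was 0.370% for the commonest width, 501 bp, then 0.610%, 1.41% and 3.10% up to 1000, 2000 and 4000 bp, and 8.63% for wider ones. Per Mb of DNA covered, peaks with CLIP numbered 7.39 in the narrowest class and 11.6 in the widest. Pol II peaks with CLIP overlapped a Pol II peak of sh-QKI5 cells in 89.0% of cases and those without CLIP in 62.8%. Within a width class the difference was between -6.03 and 5.53 percentage points, and every interval included 0. H3K4me3 overlapped 75.1% of Pol II peaks with CLIP and 46.9% of those without. Within a width class that difference was between 0.957 and 11.1 points. Its interval lay above 0 in the 2 widest classes, at 11.1 (5.62 to 14.8) and 6.94 (1.10 to 11.8), and included 0 in the other 3.

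Genes with QKI5 CLIP had Pol II at an end more often than other genes of like length. Of 20033 protein-coding genes, 2794 (13.9%) had a CLIP peak and 11932 (59.6%) a Pol II gene-end peak. Both were present at 2330 genes (11.6%), CLIP without Pol II at 464 (2.32%), Pol II without CLIP at 9602 (47.9%) and neither at 7637 (38.1%). Pol II was at an end of 83.4% of CLIP genes (82.0 to 84.8) and 55.7% of the others (55.0 to 56.4). The difference of 27.7 percentage points (26.1 to 29.2) became 26.6 (24.9 to 28.2) when each length class was weighted by its CLIP genes. Length alone was matched, and whether a gene is transcribed was not. Of the 7637 genes with neither, 5157 (67.5%) also had no Pol II peak in their span and no H3K4me3 gene-end peak. How much such genes add to the difference was not tested.

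The difference was present in each length class. From the shortest to the longest, Pol II was at an end of 81.7%, 89.8%, 89.5%, 88.2% and 76.6% of CLIP genes, and of 43.8%, 56.3%, 64.3%, 64.1% and 50.8% of the other genes. The differences were 37.8, 33.5, 25.2, 24.1 and 25.8 percentage points, the lowest limit of any being 21.1. CLIP itself became more frequent with length among genes with Pol II, at 5.44%, 10.9%, 16.1%, 23.3% and 38.6%. Among genes without it the shares were 0.998%, 1.75%, 3.90%, 6.80% and 16.5%. By number of CLIP peaks, Pol II was at an end of 86.0% of genes with 1, 81.4% with 2, 81.5% with 3 to 5, 81.1% with 6 to 9 and 92.3% (74.9 to 99.1) of the 26 genes with 10 or more. The median length of these groups went from 51.1 to 274 kb. Within the longest class the shares were 77.4%, 73.4%, 78.7%, 76.8% and 95.2% (76.2 to 99.9), the last being 20 of 21 genes, whose interval overlaps the 73.4 to 83.4 of genes with 3 to 5 peaks.

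**Figure D3:**
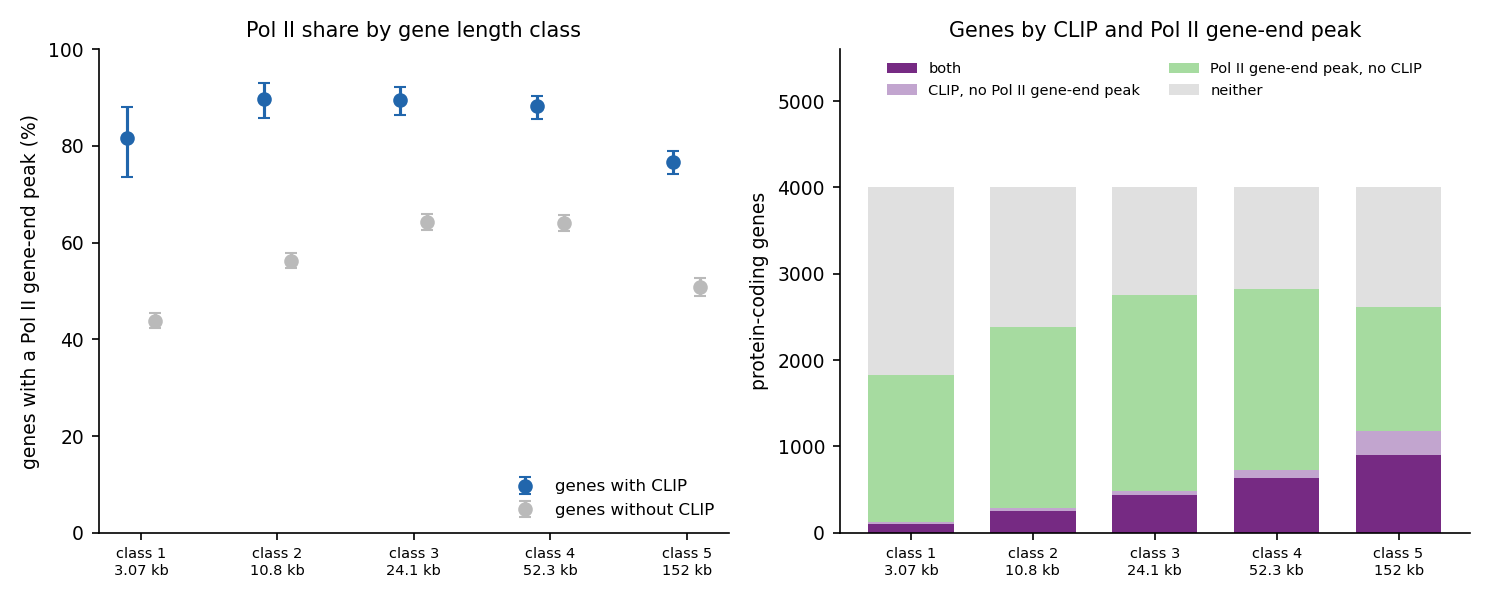
Left, percent of protein-coding genes with a Pol II gene-end peak among genes with and without a control CLIP peak, by length class with its median length; bars are exact 95% binomial intervals and overlap in no class. Right, number of genes with both, 1 or neither, by length class; CLIP without Pol II grows from 22 genes in the shortest class to 276 in the longest.

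Among genes with both, Pol II sat at the 5′ end in 96.8% and at the 3′ end in 36.6%, the latter falling from 70.4% in the shortest class to 22.4% in the longest. Few of these genes had the RNA site on that same Pol II peak: 356 had at least 1 such CLIP peak, 150 at least 2 and 6 at least 5. ZNF646, a zinc finger protein, had 9, 4 of them on the Pol II peak of its 5′ end and 5 on that of its 3′ end, with 9 to 16 reads each. BOD1L1 had 9 adjoining peaks that merge into 1 site, with 6 reads each. All 9 had their centre within 0.0870 kb of the start shown above, under a Pol II peak of 2118 bp. ONECUT2, a homeobox transcription factor of liver and neurons, had 7 with 10 reads each between 1.20 and 1.29 kb from its start.

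JUN had 5 CLIP peaks with 30, 31, 40, 43 and 37 reads, all on 1 Pol II peak of 6782 bp that spanned the whole gene on chromosome 1, from 58778805 to 58785586. LENG8 had 5 with 11 to 26 reads on 11807 bp of Pol II, and ZNHIT2, a zinc finger HIT protein, had 5 with 10 or 11 reads within 0.692 kb of its start. RPL7A, a protein of the large ribosomal subunit, had 4 with 18 to 33 reads. IRS2, an adaptor of the insulin receptor, had 4 on its 5′ Pol II peak of 14337 bp and another 2 on a 501 bp peak inside the gene.

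The 464 genes with CLIP and no Pol II gene-end peak were long, with a median of 106 kb against 58.2 kb for genes with both. By length class they numbered 22, 29, 51, 86 and 276. A Pol II peak lay somewhere in the span of 186 (40.1%), and 192 (41.4%) had an H3K4me3 gene-end peak. Neither was found at 149 (32.1%, 27.9 to 36.6). The count of 464 moved most with the settings: it was 292 with a Pol II peak anywhere on the gene taken as present, 150 with CLIP peaks of at least 10 reads only, and 100 with a -log10 p of at least 10. In sh-QKI5 cells 100 of the 464 (21.6%) had a Pol II gene-end peak. The share was 9.10% for the genes with no CLIP and no Pol II gene-end peak in control cells. Within the longest class it was 21.0% against 9.84%. CLIP peaks of the 464 genes had a median log2 enrichment of 6.73 against 5.66 in genes with both, and 50.7% against 34.4% rested on a single background read. CLIP peaks were given to genes by the identifier in the list, and for 31 of the 464 genes, 10 of them among the 22 of the shortest class, no CLIP peak lay inside the RefSeq span of the gene. With CLIP assigned by overlap with the span instead, the count was 473. The gene-end rule can miss a start that lies within the gene: of the 372 such genes with a RefSeq promoter entry, 43 (11.6%) had that start on a Pol II peak.

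All 4 genes named in the shortest class had their CLIP peaks outside the RefSeq span of the gene, so these values describe the identifier and not the gene body. Peaks listed under HBG2, a fetal globin chain, numbered 5 at 4 merged sites with up to 14 reads, the nearest 98.3 kb from Pol II. HBE1, the embryonic chain, was given 4 peaks at 3 sites with up to 14 reads, 179 kb away. Neither gene had H3K4me3 at an end. GDF15, a stress-induced cytokine, was given 4 peaks 6.91 kb or more from Pol II and did have H3K4me3. Under ANKRD23, a muscle ankyrin repeat protein, 3 of 5 peaks were on a Pol II peak at the end of another protein-coding gene.

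In the next classes, MFGE8, which bridges macrophages to dying cells, had the most CLIP peaks of the genes named in this class. These were 19 peaks at 11 sites with 365 summed reads, 259 kb from the nearest control Pol II peak. The gene did have an H3K4me3 gene-end peak, and a Pol II peak of sh-QKI5 cells lay within 1 kb of its ends. MPO had 4 peaks with up to 58 reads and a median log2 enrichment of 8.90, 10.5 kb from Pol II and with no H3K4me3. PSMG4, a proteasome assembly chaperone, and SLC26A1, a sulfate transporter, had 5 and 4 peaks, of which 2 and 4 lay inside the gene, and a Pol II peak within their span. In the middle class KCTD2 had 6 peaks and 426 summed reads, 3 of them on Pol II inside the gene. CELSR2, a cadherin, COL7A1, a collagen of anchoring fibrils, and ALAS2, the erythroid enzyme that starts haem synthesis, had 5, 4 and 3 peaks, none on Pol II, and 1 of the 3 at ALAS2 lay wholly inside the gene.

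Longer genes of this kind were HOXB3, a homeobox gene with 4 peaks of which 3 were within 5 kb of Pol II and 3 inside the gene, NDEL1, a dynein regulator with 4 peaks all farther away and 2 inside the gene, MUC4, a membrane mucin with 7 peaks 103 kb or more from Pol II, and GAS6, a ligand of the TAM receptors with 3 of 4 peaks on Pol II inside the gene. In the longest class GABRG3, a GABA receptor subunit, had 7 separate CLIP sites and the greatest distance of the 20 genes named for CLIP without Pol II, 1016 kb. ADGRB3, an adhesion receptor of neurons, had 8 peaks 633 kb or more away, with H3K4me3 at an end. MYO1D, an unconventional myosin, had 10 peaks, 2 of them within 5 kb of Pol II. MACF1, which links actin to microtubules, had 8 peaks, of which 1 was on a Pol II peak inside the gene with 13 reads. All these distances are to control Pol II. For sh-QKI5 cells, Pol II lay within 1 kb of an end of GDF15, ANKRD23, MFGE8, COL7A1, ALAS2, GAS6, MYO1D and ADGRB3. The other genes named for CLIP without Pol II lacked such a peak there too.

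The reverse class, 9602 genes with Pol II at an end and no CLIP, had a median length of 23.2 kb, against 24.1 kb over all genes. It numbered 1704, 2097, 2264, 2102 and 1435 from the shortest class to the longest. H3K4me3 was at an end of 94.9% and a Pol II gene-end peak of sh-QKI5 cells at 96.5%. For genes with both CLIP and Pol II these shares were much alike, 97.8% and 97.9%. The genes named here were chosen for the widest such peak and for having no CLIP, and several share a peak. A peak of 41853 bp on chromosome 7, from 27160774 to 27202626, reached HOXA10, HOXA10-HOXA9, HOXA11 and HOXA13, homeobox genes of the body axis. Another of 47810 bp on chromosome 17, from 81831524 to 81879333, reached P4HB, a disulfide isomerase, ARHGDIA, MCRIP1 and PPP1R27. No protein-coding gene with an end at either of these peaks had CLIP. A peak of 39418 bp, which also reached SPAG6, a gene with CLIP, took in BMI1, a Polycomb subunit, and its read-through gene COMMD3-BMI1, and 1 of 46311 bp reached MDM2, the ubiquitin ligase of p53, and CPM, a carboxypeptidase of macrophages.

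ZEB2, a repressor of epithelial genes, had 42409 bp, TIMP3, an inhibitor of metalloproteinases, 38654 bp, CA2, a carbonic anhydrase, 30160 bp, and HSP90B1, the HSP90 of the endoplasmic reticulum, 29636 bp. SATB1, a chromatin organiser of lymphocytes, had 27283 bp and ZNF521, a zinc finger protein of blood progenitors, 24359 bp. LOC124905135 and LOC124904588 had 70422 and 37081 bp. HNRNPU lies under the same 37081 bp peak as the latter and did carry CLIP, with 1 peak of 18 reads.

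Gene lists from textbook knowledge were read against 13.9% of all protein-coding genes with CLIP and 59.6% with Pol II. Of 32 myeloid transcription factors, 12 had CLIP, and all 12 had Pol II at an end. Their 62 CLIP peaks were on Pol II in 9 cases, within 5 kb in 20 and farther in 33. SPI1, the master regulator PU.1, had 1 peak of 14 reads on the Pol II peak of its 3′ end. CEBPA, which drives granulocyte and monocyte fate, and KLF4, a monocyte factor, each had 2 peaks, of 9 and of 8 reads, and GATA2, a stem-cell factor, had 1 of 10 reads, all on the Pol II peak of their 5′ end. RUNX1 had 10 peaks, 2 of them on Pol II inside the gene. CBFA2T3, a corepressor partner of RUNX1 fusions, had 37 at 21 sites, of which 1 with 34 reads was on Pol II 0.361 kb from its start, 11 were within 5 kb and 25 farther.

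Of 28 monocyte and macrophage genes, 2 (7.14%) had CLIP, a number too small to set apart from the share over all genes. Another 15 had Pol II without CLIP, among them CD68, ITGB2 and FCER1G. The genes with CLIP were MSR1, a scavenger receptor, with 2 peaks outside its RefSeq span and 794 kb from Pol II, and S100A8, a calprotectin subunit, with 1 peak 145 kb away. Neither had Pol II at an end. Of 12 granule and progenitor genes 3 had CLIP. SRGN, the proteoglycan of granules, had 2 peaks of 21 and 26 reads on 1 Pol II peak of 25220 bp, CTSD, a lysosomal protease, had 1 peak 4.73 kb from Pol II, and MPO was the third. Of 23 chemokine and cytokine genes TGFB1 and VEGFA had CLIP, all within 5 kb of Pol II.

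Immediate early and ribosomal protein genes, which are short, had nearly all of their CLIP peaks on Pol II. Of 19 immediate early genes, 18 had Pol II and 6 had CLIP, and 13 of the 14 CLIP peaks were on Pol II. They were at JUN (5), ZFP36 (3), which destabilises cytokine messages, FOSB (2), JUNB, IER2 and ZFP36L1 (1 each), where JUNB had 36 reads 0.0900 kb from its start. The median length of the list was 4.20 kb, and over all genes of the shortest class 55.3% of CLIP peaks were on Pol II. That share includes genes without a Pol II gene-end peak. All 33 ribosomal protein genes had Pol II, 4 had CLIP, and all 7 of their peaks were on Pol II: RPL7A (4), RPSA, RPS4X and RPL13A (1 each). In both lists the genes with CLIP, except ZFP36L1 and RPS4X, had a Pol II gene-end peak wider than the gene. It was 15066 bp for the 1.83 kb of JUNB and 10618 bp for the 3.21 kb of RPL7A. How far this width sets the counts on Pol II was not tested. Of 15 heat shock genes, with a median length of 13.7 kb, all had Pol II and 5 had CLIP. Their 9 CLIP peaks were on Pol II in 3 cases, within 5 kb in 4 and farther in 2. HSPA1B, HSPA9 and HSF1 held 1 peak each on Pol II, of 104, 14 and 9 reads. The other 3 peaks of HSF1 and the 1 of HSPA8 were within 5 kb, and both peaks of HSPH1 were farther.

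Lists for splicing and transcription itself differed in length. Their medians were 30.0 kb for splicing factors, 7.84 kb for Pol II subunits and 37.3 kb for pausing, elongation and termination. In the length classes with medians of 10.8, 24.1 and 52.3 kb, 285 of 4007, 484 of 4006 and 726 of 4007 genes had CLIP. Of all CLIP peaks in these classes, 31.1%, 21.6% and 12.4% were on Pol II. Of 45 splicing factors 13 had CLIP, and 9 of their 23 peaks were on Pol II: CELF2 (4), HNRNPH1 (2), LUC7L2, HNRNPU and TRA2B (1 each). MBNL2 was the exception with CLIP and no Pol II at an end, its peak lying 95.2 kb from Pol II. All 12 genes of Pol II subunits had Pol II, and 1 (8.33%), POLR2B, had CLIP, 0.315 kb from the Pol II peak. Of 36 genes for pausing, elongation and termination, 14 (38.9%) had CLIP, all with Pol II. Of their 32 CLIP peaks 2 were on Pol II, both at NELFA, a subunit of the pausing factor NELF. Of 16 genes named in earlier work on QKI, with a median of 62.3 kb, 5 (31.2%) had CLIP, all with Pol II. The 2 of 15 peaks on Pol II were both at MACROH2A1, a histone variant, with 20 and 15 reads 0.807 and 0.753 kb from its start. NUMB and FOXO1 had theirs 31.5 and 8.84 kb or more away.

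Chromatin regulators and cytoskeletal linkers are long, with median lengths of 123 and 93.9 kb against 24.1 kb over all genes. Over all genes of the 2 longest classes, 726 of 4007 and 1179 of 4006 had CLIP, and 12.4% and 4.92% of CLIP peaks were on Pol II. Of 39 chromatin regulators, 20 had CLIP, all with Pol II at an end, and 7 of 93 peaks were on Pol II, a share between those of the 2 classes: HDAC4 (3), ANKRD11 (2), KDM6B and SMARCA2 (1 each). SMYD3, a methyltransferase, had 21 peaks, all farther than 5 kb. Of 18 cytoskeletal linkers 11 had CLIP, and 4 of 108 peaks were on Pol II. AHNAK alone held 53, of which 3 were on Pol II and 46 within 5 kb of it, while all 30 peaks of PLEC, the linker plectin, were farther, at least 8.95 kb away. DMD, the dystrophin gene, SPTBN1, a spectrin, and MACF1 had CLIP and no Pol II at an end. Of 28 cell cycle genes, with a median of 16.5 kb, 6 had CLIP, CDK6 and E2F3 with 2 peaks each on Pol II and CCND2 with 1 peak and no Pol II at an end. Of 35 genes of other cell types, with a median of 14.8 kb, ALAS2 and KRT8, an epithelial keratin, had CLIP, without Pol II at an end.

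**Figure D4:**
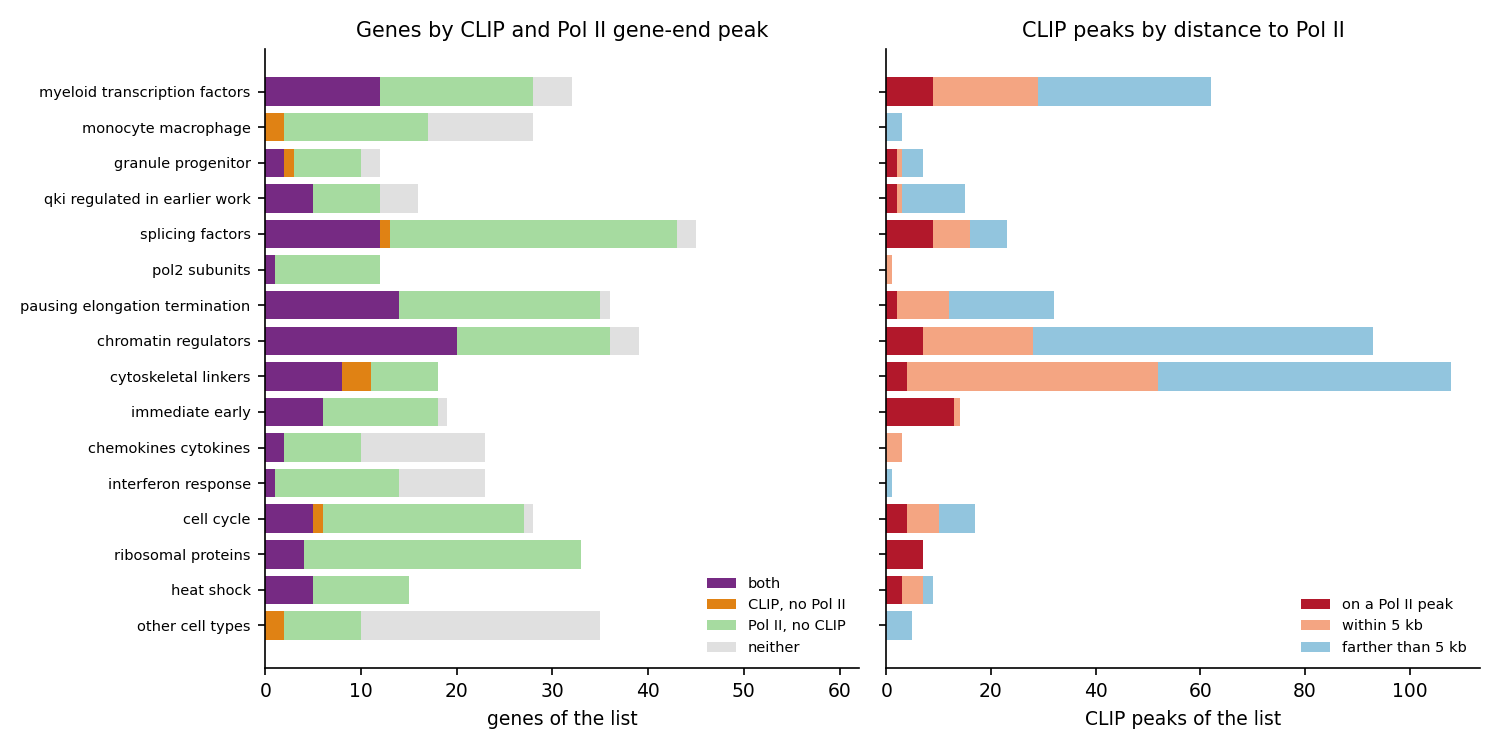
Left, number of genes of each of 16 lists with CLIP and a Pol II gene-end peak, 1 or neither. Right, number of control CLIP peaks of the same genes on a Pol II peak, within 5 kb or farther; 13 of 14 immediate early peaks and 7 of 7 ribosomal protein peaks were on Pol II, in lists with a median length of 4.52 kb or less, and 7 of 93 at the long chromatin regulators; over all genes the share was 55.3% in the shortest class and 4.92% in the longest.

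The letters of the QKI element were searched in the promoter entries of 15842 protein-coding genes, as ACTAAC or ACTAAT on either strand. Of all 300-base promoters 8.42% held it. The share was 6.17% for genes with CLIP and Pol II, 6.99% for CLIP without Pol II, 6.69% for Pol II without CLIP and 11.7% for neither, where median GC content was 67.2%, 62.7%, 65.0% and 55.3%. Of 255 genes with a CLIP peak on the Pol II peak of their 5′ end, 12 (4.71%, 2.45 to 8.08) held it. None of the 4 starts shown did. These letters describe the DNA around starts, and the RNA under the CLIP peaks themselves was not searched here.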

How the data were processed

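Control THP-1 cells were assayed by QKI5 CLIP and Pol II ChIP, 2 samples each. Per the series' design text, each deposited list pools both replicates. HOMER and GRCh38.p5 appear, without a role, in the submitters' processing notes; aligner, caller settings and input handling were not given in the sources used here. In the deposited ChIP lists the authors' score is 1 at every peak, so Pol II peaks were ranked by width. The deposited CLIP lists have no header, and from their values column 4 was taken as the authors' -log10 p, from 7.00 upward, column 5 as the authors' log2 enrichment, from 3.00 upward, and the last number of column 7 as reads. The -log10 p is exactly 15.66 for 203 peaks and at its ceiling for 51, so peaks were ranked by reads. Background reads were inferred as reads times 15.2 divided by the linear enrichment, which was whole within 0.01 for 7241 peaks; no source states this.

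Gene spans are those RefSeq lists for GRCh38.p14, a patch of the same assembly, and were used for distances and lengths only. CLIP identifiers matched a gene for 94.5% of peaks. Peaks were given to genes by these identifiers, and 93.9% of the matched ones lay inside the RefSeq span. The CLIP strand equalled the RefSeq strand for 5167 of 5167 peaks checked, and 3745 genes had no strand. The share of positions counts every placement of a window of the peak's width in the same gene or stretch. Scripts ran in Python 3.11.15 with pandas 2.3.3, NumPy 2.4.6 and SciPy 1.17.1 and were tested on simulated data. Genes were named by rule: per distance class the 8 CLIP peaks with most reads; per length class the 4 genes with most CLIP sites (peaks within 50 bp merged) but no Pol II, and the 4 with the widest gene-end peak but no CLIP; the 8 genes with most CLIP peaks on their gene-end Pol II peak; members of the 16 gene lists with CLIP and no Pol II or CLIP on Pol II; and QKI. Other list members were named after their values were seen. The interferon response list is not reported here in the text. The members and lists were chosen with earlier results of these data known.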

Additional observations from a re-analysis of the deposited data

Results flagged for a closer look

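A signal outside the comparison was present in the control CLIP list: 37 peaks lay on mitochondrial DNA or on contigs outside chromosomes 1 to 22, X and Y, where no Pol II comparison was made. Of these, 35 were mitochondrial, with up to 633 reads at MT-CO2, a subunit of cytochrome oxidase, at a log2 enrichment of 5.97, and 255 reads at MT-ND5, a subunit of complex I. MT-RNR2, the large ribosomal RNA of the organelle, had 162 reads and MT-CO3 had 127. The other 2 were on GL000194.1, with up to 11 reads.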

How the results depend on the processing

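No paired analysis was possible because each deposited list pools both replicates, and for the same reason no replicate could be left out. Shares and counts have no sign that could turn. The length-standardised difference in Pol II share between CLIP and other genes has one, and it stayed above 0 in its 10 alternatives. The comparison with the share of positions was not run under any alternative. Requiring 50% of the CLIP peak to be covered, or its centre inside, was run for the share on Pol II and gave 13.0% both times. Merging neighbouring peaks was run for the 3 distance shares, which stayed inside their intervals. Under 2 alternatives chosen after seeing the data (without CLIP peaks of at most 20 bp, and without those shared with the knockdown list) the 3 shares and the difference stayed inside their intervals and both gene counts within 1.5 times. Without Pol II peaks of the commonest width, 16.8% of CLIP peaks were within 5 kb and 70.6% farther. With a -log10 p of at least 10 the shares on Pol II, within 5 kb and farther were 17.1%, 24.2% and 58.8%, genes with CLIP and no Pol II fell to 100, and the length-standardised difference was 24.0 percentage points. With at least 10 reads the shares were 20.8%, 25.1% and 54.1% and those genes numbered 150. Both thresholds leave fewer CLIP peaks by construction, and the cause of the shift in shares was not tested. Weighting each gene equally gave 15.0%, 24.0% and 61.0%. A distance limit of 1 kb gave 7.59% and 79.2%, and 10 kb gave 32.1% and 54.6%, for within and beyond the limit. A gene-end limit of 5 kb gave a difference of 24.4 points, and counting Pol II anywhere on the gene left 292 genes with CLIP and no Pol II. Genes with Pol II and no CLIP ranged from 9220 to 11392 over 8 alternatives. Depth is unknown, so a missing peak cannot be read as an absence of binding.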
